A study of Nicotiana tabacum with 32 samples.

Results

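PR1B and HPL are plant defence genes that were followed through 32 deposited 2-colour arrays of tobacco cells. They were read by 4 cDNA clones (8 spots) among 15360 clones (32448 spots), of which 815 carried a single gene symbol. The members were the clones whose symbol in the array's name table was exactly HPL (clones BQ111808 and BQ119647) or exactly PR1B (clones BQ121947 and BQ514625). Each clone was printed as 2 spots, which were averaged, and the clones were kept apart.

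The material was suspension cultures of Nicotiana tabacum cv. Xanthi, grown in MS medium at 25 C without light. Cells were either silenced by RNA interference for SIPK, the salicylic acid-induced mitogen-activated protein kinase, or wild type. On 24 standard arrays, 3 for each of 8 conditions, RNA of SIPK-silenced cells was hybridised with RNA of wild-type cells given the same treatment. The biotic set held an untreated control at 0 h, harpin (a Pseudomonas syringae elicitor protein) at 4 and 8 h, and megaspermin (an elicitor of plant-pathogenic Phytophthora) at 4 and 8 h. In the abiotic set, cells were first kept for 30 min with xanthine, and a control at 0 h and cells at 4 and 8 h after addition of xanthine oxidase were taken. Wild-type cells at 4 h after harpin or after megaspermin were set against untreated wild-type cells at 0 h, on 3 arrays each. A further 2 arrays had exchanged dyes, 1 of the abiotic control and 1 of wild-type harpin.

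The design limits what these groups can show. Controls were sampled at 0 h alone, so treatment and time after the start cannot be told apart. Cells of each genotype were pooled before they were divided into 3 volumes of 10 ml, so p-values measure the spread between volumes of a pooled culture. SIPK was not among the named clones, so the silencing was not measured here. The labels assign megaspermin to Phytophthora on the genotype arrays and to P. syringae on the wild-type arrays. The number of silenced lines is not given in the sources used here.

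The proteins of the pathogenesis-related 1 family, to which PR1B belongs, are small secreted proteins. In tobacco, acidic PR1 proteins accumulate after infection and are used as markers of salicylic acid signalling. HPL, hydroperoxide lyase, cleaves the fatty acid hydroperoxides that lipoxygenases make into short aldehydes and oxo acids, the source of the green leaf volatiles. It draws on the same substrates as allene oxide synthase, the first enzyme of the jasmonate branch. SIPK is the tobacco counterpart of Arabidopsis MPK6 and is activated by elicitors, wounding and salicylic acid.

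All values below are log2 ratios of the 2 channels of an array, so they compare cells and give no level. A value above 0 likely means more signal in the SIPK-silenced cells, or in the treated cells on wild-type arrays. The labels name those cells as the query, but no label states which channel was on top, and the base of 2 was assumed. The clones were made from potato, so each may also bind tobacco relatives of the named gene. RNA came from whole cultures, in which fewer cells that express a gene and less RNA per cell cannot be told apart. Between 25.4% and 65.0% of the spots had a value on an array, and replicate arrays correlated at 0.65 to 0.91. Correlations between genotype and wild-type arrays reached down to -0.34.

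HPL was measured unevenly. Clone BQ111808 had a value on 20 of the 30 standard arrays and clone BQ119647 on 16. PR1B clone BQ121947 had a value on 26 arrays and PR1B clone BQ514625 on 14. Both spots were present on 9, 8, 21 and 6 arrays for these clones in that order. A group mean was tested where at least 2 of its 3 arrays had a value, with limma and Benjamini-Hochberg adjustment over all clones tested in that comparison, and the threshold was an adjusted p of 0.05.

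HPL gave ratios above 0, that is more signal from the SIPK-silenced cells, in most conditions. Both clones passed the test in the biotic control, with harpin at 4 and 8 h, in the abiotic control and with xanthine oxidase at 8 h. Clone BQ111808 also passed with xanthine oxidase at 4 h, where the other clone had no value. In all, 11 of 13 tested group means were higher and 0 were lower. The shares of all tested clones called higher were 14.2% in the biotic control, 15% and 23.2% with harpin at 4 and 8 h, 11.4% in the abiotic control, and 16.7% and 17.7% with xanthine oxidase at 4 and 8 h. The 2 HPL means that did not pass were both of megaspermin at 8 h, where 18.6% of tested clones were called higher. The arrays with exchanged dyes were also entered in the fit, together with a term for the dye. Only that of the abiotic control held HPL values, so the dye term of each HPL clone rests on it alone. In this fit the 11 means ranged from 0.39 to 1.202, all above 0, and 3 of the 11 calls were kept. The calls of BQ111808 in the biotic control, the abiotic control and with xanthine oxidase at 8 h were also lost when replicate 1 was left out (means of 0.56, 0.74 and 0.83), and those in the 2 controls when replicate 2 was left out (0.62 and 0.74).

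In the biotic control, HPL clone BQ111808 had log2 ratios of 0.88, 0.77 and 0.36 on the 3 arrays. Clone BQ119647 had 1.76, 0.87 and 0.95. All 6 values lay above 0. The mean was 0.67 ± 0.20 (SE, n = 3; limma adjusted p = 0.0178), or 1.59-fold, for BQ111808. For BQ119647 it was 1.19 ± 0.20 (SE, n = 3; adjusted p = 0.000166). Of all clones tested in this group, 7.27% had a larger mean than BQ111808 and 2.19% a larger mean than BQ119647.

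In the abiotic control, where the cells had been kept with xanthine, HPL clone BQ111808 had log2 ratios of 1.06, 1.08 and 0.41. Clone BQ119647 had 1.05, 1.28 and 0.65. The lowest value of both clones came from the same array, replicate 3. The means were 0.85 ± 0.20 (SE, n = 3; limma adjusted p = 0.00431) and 0.99 ± 0.20 (SE, n = 3; adjusted p = 0.00117). On the single abiotic control array with exchanged dyes the clones had 0.29 and 0.41, below every standard array of the group and still above 0. The biotic minus the abiotic control differed by -0.18 for BQ111808 (95% interval -0.78 to 0.43, adjusted p = 0.921) and by 0.20 for BQ119647 (-0.40 to 0.80, adjusted p = 0.904), neither past the threshold, in a comparison where 3.75% of clones were called.

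**Figure D1:**
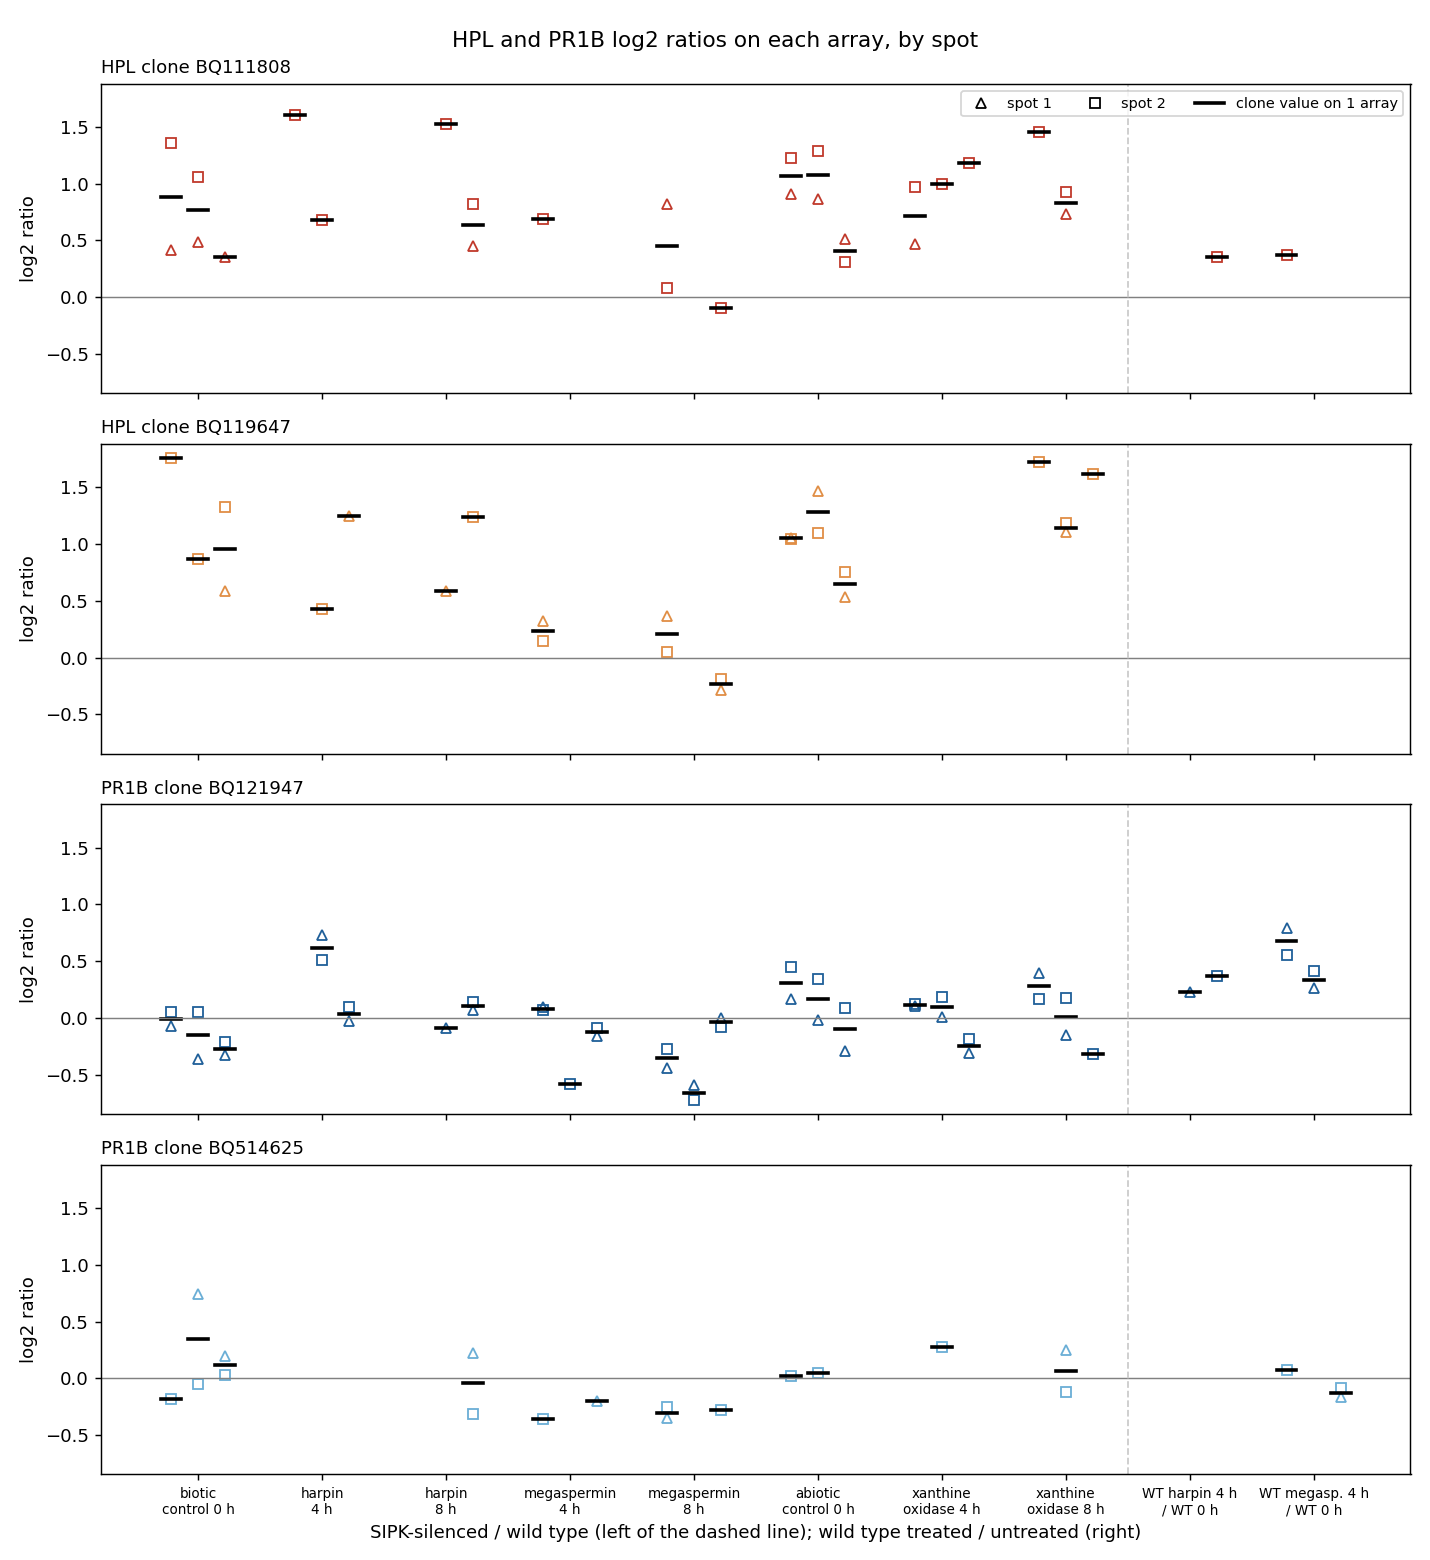
Log2 ratio (y axis) of each spot and of each clone on every standard array (x axis, 3 places per group); triangles and squares are the 2 spots and black bars the clone value on 1 array. HPL lies above 0 on every SIPK-silenced array with a value outside megaspermin, and PR1B lies on both sides of 0; gaps are arrays without a value.

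After harpin, each HPL clone had a value on 2 of the 3 arrays at each time. Clone BQ111808 had 1.60 and 0.68 at 4 h and 1.52 and 0.63 at 8 h. Clone BQ119647 had 0.43 and 1.25 at 4 h and 0.58 and 1.23 at 8 h. In each pair 1 array was well above the other, and all 8 values lay above 0. The SD of the 2 arrays was 0.65 at 4 h and 0.63 at 8 h for BQ111808, and 0.58 and 0.46 for BQ119647. The SE values that follow are those of the model, with the spread pooled over groups. The means of BQ111808 were 1.14 ± 0.25 at 4 h (SE, n = 2; limma adjusted p = 0.0016) and 1.08 ± 0.25 at 8 h (SE, n = 2; adjusted p = 0.00163). Those of BQ119647 were 0.84 ± 0.25 at 4 h (SE, n = 2; adjusted p = 0.0141) and 0.91 ± 0.25 at 8 h (SE, n = 2; adjusted p = 0.0057). Each of these 4 calls was lost when the higher of its 2 arrays was left out: the remaining array gave 0.68 and 0.63 for BQ111808 and 0.43 and 0.58 for BQ119647.

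After xanthine oxidase, an enzyme that makes superoxide from xanthine, HPL clone BQ111808 had log2 ratios of 0.72, 0.99 and 1.18 at 4 h and 1.45 and 0.83 at 8 h. Clone BQ119647 had 1.72, 1.14 and 1.62 at 8 h and no value at 4 h. All 8 values lay above 0. The means of BQ111808 were 0.97 ± 0.20 at 4 h (SE, n = 3; limma adjusted p = 0.00105) and 1.14 ± 0.25 at 8 h (SE, n = 2; adjusted p = 0.00126). That of BQ119647 at 8 h was 1.495 ± 0.20 (SE, n = 3; adjusted p = 1.09e-05), or 2.82-fold, with 1.71% of tested clones above it. No change from the abiotic control passed: 0.11 (95% interval -0.49 to 0.72) at 4 h and 0.29 (-0.39 to 0.97) at 8 h for BQ111808, and 0.50 (-0.10 to 1.099) at 8 h for BQ119647. Over all clones, 0.0563% at 4 h and 0.302% at 8 h passed in these comparisons, and with array weights 7.88% and 22.5%. Without xanthine oxidase 8 h replicate 2, 1.71% passed at 8 h.

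With megaspermin at 8 h the HPL means of both clones were the nearest to 0 among their tested groups. At 4 h only replicate 1 gave values, 0.69 for BQ111808 and 0.23 for BQ119647, and no test was made. At 8 h replicates 1 and 3 gave 0.45 and -0.10 for BQ111808 and 0.21 and -0.24 for BQ119647. Both clones were thus above 0 on replicate 1 and below 0 on replicate 3. The means at 8 h were 0.18 ± 0.25 (SE, n = 2; limma adjusted p = 0.612; 95% interval -0.35 to 0.70) and -0.01 ± 0.25 (SE, n = 2; adjusted p = 0.974; -0.53 to 0.50).

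The HPL ratio with megaspermin at 8 h was tested directly against that in the biotic control. For BQ119647 the log2 ratio at 8 h was lower than in the control, by a difference of -1.20 ± 0.32 (SE, n = 2 against 3; limma adjusted p = 0.00915; 95% interval -1.87 to -0.54). The 2 megaspermin values, 0.21 and -0.24, did not overlap the 3 control values, 0.87 to 1.76. How many of all clones had values that did not overlap, with 2 arrays against 3, was not counted. In this comparison 12.4% of tested clones were called lower and 25.8% were called in either direction. For BQ111808 the difference was -0.50 ± 0.32 (SE, limma adjusted p = 0.286, 95% interval -1.17 to 0.18) and did not pass. The megaspermin value of 0.45 lay above the lowest control value of 0.36, which came from spot 1 alone. The spots of this clone disagreed. On spot 2 the control had 1.36 and 1.05 and megaspermin 0.08 and -0.10. On spot 1 the control had 0.41, 0.49 and 0.36 and megaspermin 0.82. The difference of BQ119647 was the single call among 9 tested changes of HPL from a control. The call was lost without biotic control replicate 1, where the difference was -0.92 (adjusted p = 0.0523), and without megaspermin replicate 3, where it was -0.98 (adjusted p = 0.0963).

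**Figure D2:**
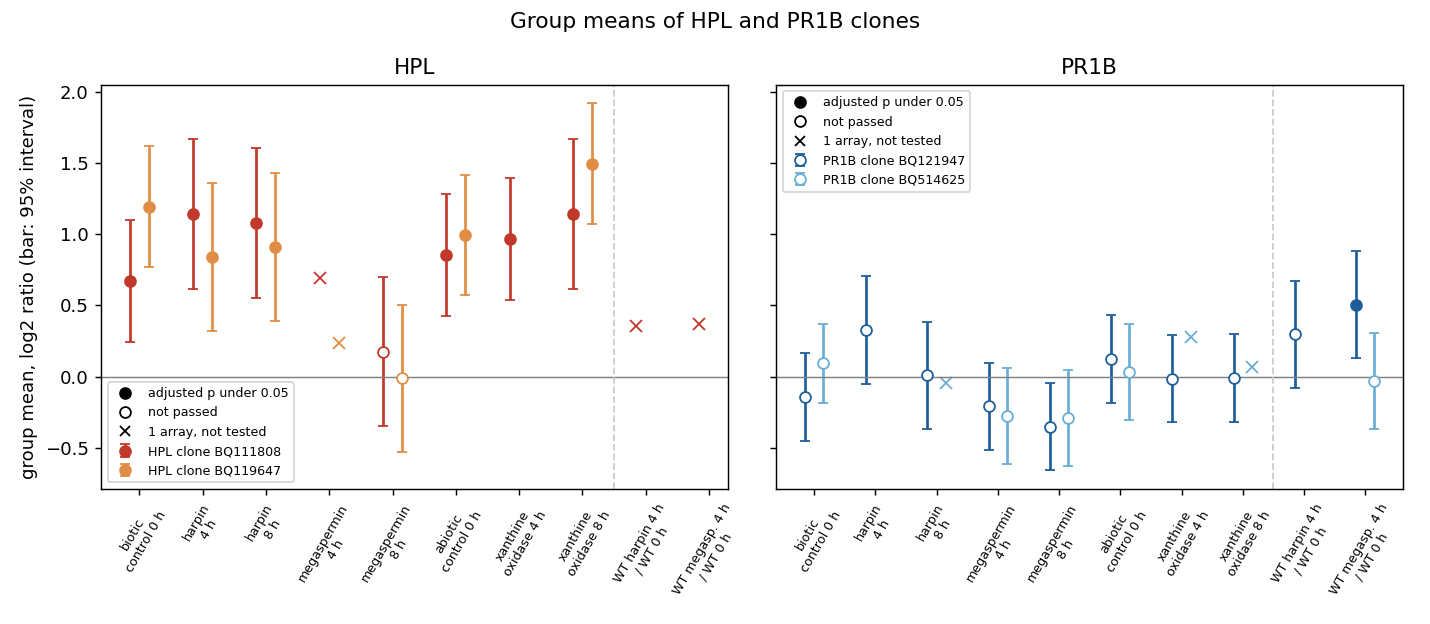
Mean log2 ratio (y axis) of each HPL and PR1B clone in each group (x axis), with 95% intervals of the model; filled circles passed an adjusted p of 0.05, open circles did not, and crosses are single arrays without a test. HPL means are filled in every tested SIPK group but megaspermin at 8 h, and the 1 filled PR1B mean is that of megaspermin in wild-type cells.

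Harpin and megaspermin were also set against each other within SIPK-silenced over wild-type ratios, a comparison added after the values had been seen. At 8 h the HPL difference, harpin minus megaspermin, was 0.90 ± 0.35 for BQ111808 (SE, n = 2 against 2; limma adjusted p = 0.0648; 95% interval 0.16 to 1.64). For BQ119647 it was 0.92 ± 0.35 (SE, n = 2 against 2; adjusted p = 0.0569; 0.19 to 1.65). Neither passed, in a comparison where 27.7% of clones did. The call depended on the setting. Without harpin 8 h replicate 3 the difference of BQ111808 was 1.35, and without harpin 8 h replicate 2 that of BQ119647 was 1.25, both past the threshold. Each of these fits left out the lower harpin array and kept 1 harpin array with a value. The other fits without 1 array did not pass, with differences down to 0.46 for BQ111808 and 0.60 for BQ119647. BQ111808 also passed with array weights (1.01) and with spot 2 alone (1.18), and BQ119647, at the same mean, with only these groups in the fit. Over all clones, 36.3% were called with array weights and 25.6% with only these groups in the fit. Both clones passed with a term for the replicate number (replicate block), although replicate numbers did not pair the arrays. The lowest harpin value exceeded the highest megaspermin value for each clone, 0.63 against 0.45 for BQ111808 and 0.58 against 0.21 for BQ119647. On spot 1 of BQ111808 the order was the reverse, 0.45 with harpin against 0.82 with megaspermin. How many of all clones separate in this way with 2 arrays against 2 was not counted.

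Harpin alone did not move the HPL ratio past the threshold relative to the biotic control. The differences at 4 h were 0.47 for BQ111808 (95% interval -0.21 to 1.15; limma adjusted p = 0.382) and -0.35 for BQ119647 (-1.02 to 0.31; adjusted p = 0.527). At 8 h they were 0.41 (-0.27 to 1.08; adjusted p = 0.45) and -0.28 (-0.95 to 0.39; adjusted p = 0.623). Over all clones, 14.2% at 4 h and 17.8% at 8 h were called. The signs were not stable: with 1 array left out at a time, BQ111808 ranged from -0.04 to 0.85 at 8 h, and BQ119647 from -0.76 to 0.06 at 4 h and from -0.61 to 0.04 at 8 h.

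The order of the HPL group means differed between the clones. BQ111808 was highest with harpin at 4 h (1.14), followed by xanthine oxidase at 8 h (1.14), harpin at 8 h (1.08), xanthine oxidase at 4 h (0.97), the abiotic control (0.85), the biotic control (0.67) and megaspermin at 8 h (0.18). BQ119647 was highest with xanthine oxidase at 8 h (1.495), followed by the biotic control (1.19), the abiotic control (0.99), harpin at 8 h (0.91), harpin at 4 h (0.84) and megaspermin at 8 h (-0.01). Megaspermin at 8 h was last for both. All 6 steps between neighbours of BQ111808 had 95% intervals that held 0. Of the 5 steps of BQ119647, the last one, from harpin at 4 h to megaspermin at 8 h, had an interval above 0 (difference 0.85, interval 0.12 to 1.58). Over the 14 arrays on which both HPL clones had a value, BQ111808 was above BQ119647 on 6, the median difference was -0.15, and the values correlated at r = 0.60, across arrays that share their hybridisation.

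In wild-type cells HPL was hardly measured. Clone BQ111808 gave 0.36 on 1 harpin array and 0.37 on 1 megaspermin array at 4 h, and BQ119647 gave no value on the 6 standard arrays. Neither group could be tested. The genotype arrays had values for 34.6% to 65.0% of the spots and the wild-type arrays for 25.4% to 39.4%.

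The spots of HPL clone BQ111808 did not follow each other. Spot 2 was above spot 1 on 7 of the 9 standard arrays with both, by a median of 0.365. With the arrays of exchanged dyes included, the spots correlated at 0.08 over arrays, against a median of 0.87 over 813 named clones. On 11 of its 20 standard arrays with a value BQ111808 had 1 spot alone, so its group means mix the spots unevenly. Both of its harpin values at 4 h were of spot 2 alone. For BQ119647, spot 2 was above spot 1 on 4 of 8 arrays, with a median difference of 0.04. All 23 spot values of BQ111808 and all 18 of BQ119647 on SIPK-silenced arrays outside megaspermin were nevertheless above 0, from 0.31 to 1.60 and from 0.43 to 1.76. Spot 2 of BQ111808 taken alone gave a change of -1.22 between megaspermin at 8 h and the biotic control (limma adjusted p = 0.0157), against -0.50 for the mean of both spots, and the spots of this group on replicate 1 had 0.82 and 0.08.

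**Figure D3:**
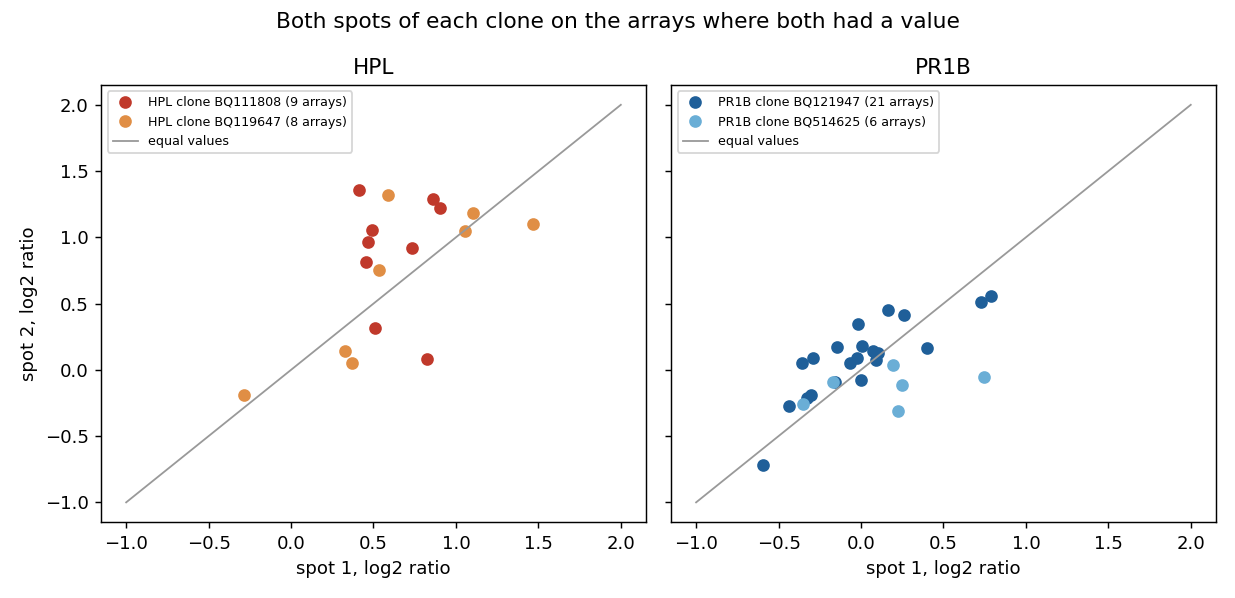
Log2 ratio of spot 2 (y axis) against spot 1 (x axis) for HPL (left) and PR1B (right); each point is 1 standard array on which both spots of the clone had a value, and the line marks equal values. Points of HPL clone BQ111808 lie above the line on 7 of 9 arrays, whereas the 21 points of PR1B clone BQ121947 run along it.

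PR1B did not pass the test in any SIPK group in the fit over all arrays. Of 12 tested group means of its clones, 0 were higher and 0 lower by limma, and 1 had an unadjusted p below 0.05. With array weights, 2 of these means passed: BQ121947 with xanthine oxidase at 8 h (-0.26) and BQ514625 with megaspermin at 4 h (-0.34). Under these weights 64.7% and 52.9% of all tested clones were called in those groups. BQ121947 with harpin at 4 h passed with a term for the replicate number (replicate block), although replicate numbers did not pair the arrays. BQ121947 with megaspermin at 8 h passed with a dye term (-0.59), which for this clone rests on the abiotic control array with exchanged dyes alone. It also passed without megaspermin 8 h replicate 3 (-0.51, limma adjusted p = 0.031). BQ121947, the better measured clone, was tested in all 8 groups, and its mean over them was -0.03 ± 0.06 (SE, n = 22 arrays; limma adjusted p = 0.61; 95% interval -0.15 to 0.08). Of the clones tested on that mean, 72.3% were called.

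In the biotic control, PR1B clone BQ121947 had -0.01, -0.15 and -0.27, and clone BQ514625 had -0.18, 0.35 and 0.12. The clones thus lay on both sides of 0. The means were -0.14 ± 0.15 (SE, n = 3; limma adjusted p = 0.526) and 0.09 ± 0.13 (SE, n = 3; adjusted p = 0.645). In the abiotic control BQ121947 had 0.31, 0.16 and -0.10 (mean 0.12 ± 0.15, SE, n = 3; adjusted p = 0.65) and BQ514625 had 0.02 and 0.04 (mean 0.03 ± 0.16, SE, n = 2; adjusted p = 0.928). Shares called in either direction were 29% in the biotic and 22.6% in the abiotic control. On the abiotic control array with exchanged dyes BQ121947 had -0.35, below the 3 standard arrays.

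After harpin, PR1B clone BQ121947 had 0.62 and 0.04 on the 2 measured arrays at 4 h and -0.09 and 0.11 at 8 h. The means were 0.33 ± 0.18 at 4 h (SE, n = 2; limma adjusted p = 0.179) and 0.01 ± 0.18 at 8 h (SE, n = 2; adjusted p = 0.974). The higher value at 4 h rests on 1 array, and the mean at 4 h passed with the replicate block. In these groups 31.3% and 46% of clones were called. Clone BQ514625 had no value at 4 h and -0.04 on 1 array at 8 h.

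After megaspermin, PR1B values lay mostly below 0. Clone BQ121947 had 0.08, -0.58 and -0.12 at 4 h and -0.36, -0.66 and -0.04 at 8 h. Clone BQ514625 had -0.36 and -0.20 at 4 h and -0.30 and -0.27 at 8 h. In all, 1 of 6 arrays was above 0 for BQ121947 and 0 of 4 for BQ514625. No mean passed: for BQ121947 they were -0.21 ± 0.15 at 4 h (SE, n = 3; limma adjusted p = 0.3) and -0.35 ± 0.15 at 8 h (SE, n = 3; adjusted p = 0.0667). For BQ514625 they were -0.28 ± 0.16 at 4 h (SE, n = 2; adjusted p = 0.199) and -0.29 ± 0.16 at 8 h (SE, n = 2; adjusted p = 0.168). The shares of clones called were 32.6% at 4 h and 37.1% at 8 h. Without megaspermin 8 h replicate 3 the mean of BQ121947 was -0.51 (limma adjusted p = 0.031), past the threshold. The mean of -0.59 with a term for the dye also passed, with that term resting on the abiotic control array of exchanged dyes.

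After xanthine oxidase, PR1B clone BQ121947 had 0.11, 0.10 and -0.25 at 4 h and 0.28, 0.01 and -0.32 at 8 h. In both groups replicate 3 was the only value below 0. The means were -0.01 ± 0.15 at each time (SE, n = 3; limma adjusted p = 0.961 at 4 h and 0.972 at 8 h), where 34.7% and 38.7% of clones were called. Clone BQ514625 gave 0.28 on 1 array at 4 h and 0.06 on 1 array at 8 h.

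No change of PR1B from a control passed, with 8 tested and 0 below an unadjusted p of 0.05 by limma. With array weights, 2 passed: BQ121947 with xanthine oxidase at 8 h (-0.46) and BQ514625 with megaspermin at 4 h (-0.43). Under these weights 22.5% and 42.1% of all tested clones were called in those comparisons. With megaspermin, the differences from the biotic control were -0.07 at 4 h (95% interval -0.50 to 0.37) and -0.21 at 8 h (-0.64 to 0.23) for BQ121947. For BQ514625 they were -0.37 at 4 h (-0.81 to 0.06) and -0.38 at 8 h (-0.82 to 0.05). The share of clones called at 4 h was 17.2%. The largest change of BQ121947 was with harpin at 4 h, 0.47 ± 0.23 (SE, n = 2 against 3; limma adjusted p = 0.199; -0.01 to 0.96). With xanthine oxidase the changes were -0.14 at 4 h (-0.57 to 0.30) and -0.13 at 8 h (-0.57 to 0.30). Between the elicitors, harpin minus megaspermin was 0.54 ± 0.23 at 4 h (SE, n = 2 against 3; adjusted p = 0.126; 0.05 to 1.02), where 16.6% of clones were called, and 0.36 ± 0.23 at 8 h (adjusted p = 0.271; -0.13 to 0.84).

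**Figure D4:**
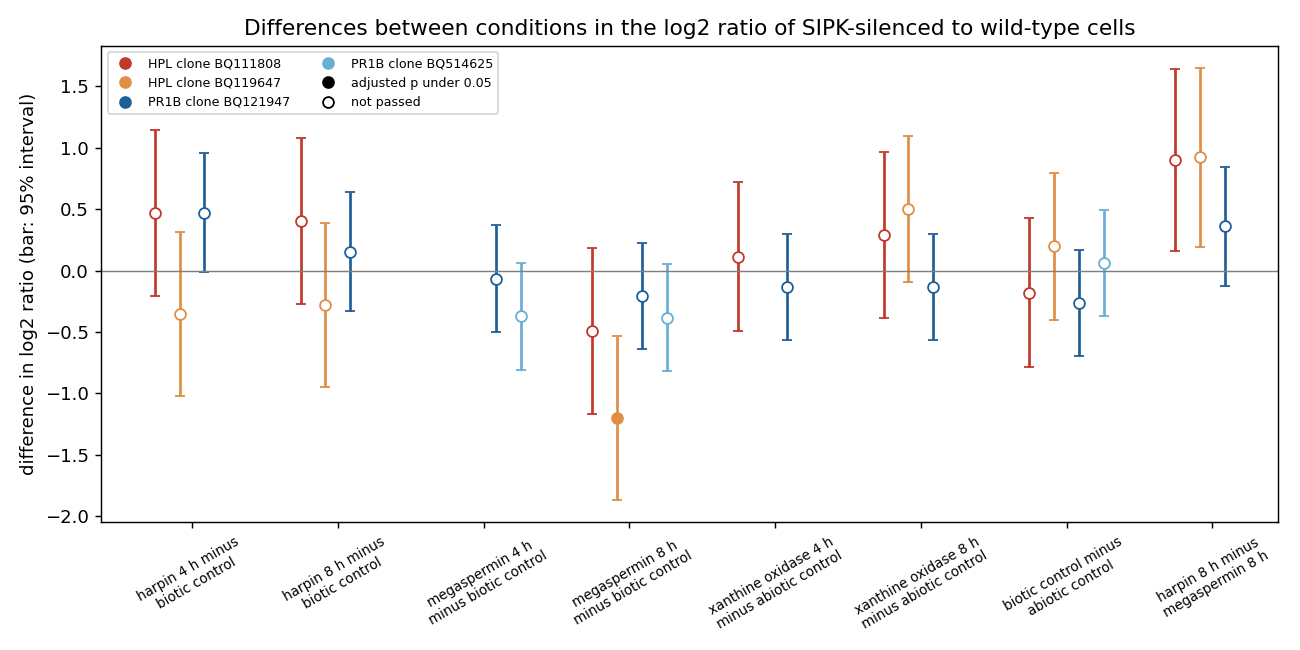
Difference in the log2 ratio of SIPK-silenced to wild-type cells (y axis) between the conditions named on the x axis, with 95% intervals, for each clone with a test. HPL clone BQ119647 with megaspermin at 8 h minus the biotic control, at -1.20, is the 1 filled point past an adjusted p of 0.05.

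In wild-type cells, where treated cells were set against untreated ones, PR1B clone BQ121947 gave values above 0 on all 4 arrays that measured it. It had 0.23 and 0.37 on 2 of 3 harpin arrays, and 0.67 and 0.34 on 2 of 3 megaspermin arrays. The ranges of the elicitors overlapped. The mean with harpin was 0.30 ± 0.18 (SE, n = 2, limma adjusted p = 0.172, 95% interval -0.08 to 0.67), and 53.5% of clones were called. This harpin mean was larger and passed with the replicate block, although replicate numbers did not pair the arrays. The mean with megaspermin was 0.51 ± 0.18 (SE, n = 2; adjusted p = 0.0253; 0.13 to 0.88), or 1.42-fold, and 23.3% of tested clones were called higher and 46% in either direction. Harpin minus megaspermin was -0.21 (95% interval -0.74 to 0.32; adjusted p = 0.675), where 13.9% of clones were called.

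The wild-type PR1B call rested on few spots of 1 clone. The other clone, BQ514625, had 0.07 and -0.13 on 2 megaspermin arrays (mean -0.03 ± 0.16, SE, n = 2; limma adjusted p = 0.9) and no value with harpin. The 95% interval of BQ514625 reached up to 0.31, below the mean of BQ121947; their difference was not tested. Without wild-type megaspermin replicate 1 the mean of BQ121947 was 0.34 (limma adjusted p = 0.323). The call was also lost with a dye term (0.27), with arrays scaled to a common spread (0.40), and, at the same mean, with only that group in the fit (adjusted p = 0.109). The dye term of BQ121947 rests on the abiotic control array with exchanged dyes, since the wild-type one gave it no value. Of 3 tested wild-type means of PR1B, 1 passed.

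The 2 PR1B clones were weakly related over arrays. On the 13 standard arrays with both, BQ121947 was above BQ514625 on 8, with a median difference of 0.12, and they correlated at r = 0.19. The spots of BQ121947 followed each other, with a correlation of 0.82 over arrays, those with exchanged dyes included. Those of BQ514625 were both present on 6 arrays, with spot 2 above spot 1 on 2 of them. In the order of the 8 SIPK groups, BQ121947 was highest with harpin at 4 h (0.33) and lowest with megaspermin at 8 h (-0.35), and the 7 steps between neighbours all had 95% intervals that held 0. BQ514625 was tested in 4 groups, with the biotic control highest (0.09) and megaspermin at 8 h lowest (-0.29), and its 3 steps likewise held 0.

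Set side by side on the same arrays, the HPL ratio lay above the PR1B ratio on nearly all SIPK arrays. HPL clone BQ111808 was above PR1B clone BQ121947 on 16 of 17 arrays, by a median of 0.81, and HPL clone BQ119647 was above it on 14 of 16, by a median of 1.07. Against PR1B clone BQ514625 the counts were 11 of 11 and 10 of 10, with medians of 0.75 and 0.93. These are differences between ratios of different clones, and no level of a gene can be compared from them. The HPL and PR1B values moved together weakly over the SIPK arrays, with r from 0.06 to 0.50 over 10 to 17 arrays that share hybridisation and signal. Among the tested SIPK groups, megaspermin at 8 h had the lowest mean for each of the 4 clones. For BQ514625 the gap to megaspermin at 4 h was 0.01, with an interval from -0.47 to 0.49. The clones were read on the same arrays, so their shared order is not separate evidence. The median over all tested clones was also lowest in this group, at -0.08. How many of all clones were lowest there was not counted.

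Other clones of the oxylipin list were few: of 37 symbols, 3 were found, on 4 clones, of which 2 are HPL. The others were POTLX-3, a potato lipoxygenase, and ADH1, an alcohol dehydrogenase. POTLX-3 did not pass in any of the 8 SIPK groups, with means from -0.06 to 0.13, and its mean over them was 0.03 ± 0.04 (SE, n = 23; limma adjusted p = 0.504). ADH1 was higher in SIPK-silenced cells in all 8, with 2.15 ± 0.25 with megaspermin at 8 h (SE, n = 3; adjusted p = 1.08e-07) and 3.47 ± 0.25 in the biotic control (SE, n = 3; adjusted p = 9.16e-12). The change of ADH1 between these was -1.32 ± 0.35 (SE, n = 3 each; adjusted p = 0.00564). With HPL clone BQ119647, whose call was lost in 2 of the fits without 1 array, this made 2 of 4 oxylipin clones lower and 0 higher in that comparison, where 12.4% of all clones were lower. The count holds the HPL result itself, and the list was written with earlier results of these data known. It is therefore no separate evidence on HPL. In wild-type cells ADH1 was higher with harpin (1.72) and with megaspermin (1.69).

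Of the 40 symbols of the defence and salicylate list, 4 were found, on 7 clones: PR1B, STWRKY8 (a WRKY transcription factor), PPO (polyphenol oxidase) and NAC2 (a NAC-domain transcription factor). In the SIPK groups between 2 and 5 of 6 or 7 tested clones were higher and 0 were lower, and none of those called was PR1B. Over all clones, 22.6% to 46% were called in either direction in these groups. Called higher were 11.4% to 23.2%, a share not given for megaspermin at 4 h. PR1B, PPO and STWRKY8 have 2 clones each, and the list was written with earlier results of these data known. PPO clone BQ113740 was at -0.46 ± 0.20 with megaspermin at 8 h (SE, n = 3; limma adjusted p = 0.0793) and at 2.45 ± 0.20 in the biotic control (SE, n = 3; adjusted p = 1.68e-10). STWRKY8 clone BQ113469 was at 1.38 ± 0.16 with megaspermin at 8 h (SE, n = 3; adjusted p = 1.74e-07) and at 0.14 ± 0.16 in the biotic control (SE, n = 3; adjusted p = 0.583). The other STWRKY8 clone, BQ121965, was at 0.80 with megaspermin at 8 h and at -0.08 in the biotic control. With megaspermin at 8 h minus the biotic control, 2 of 7 clones were higher and 2 lower, where 25.8% of all clones were called. In wild-type cells with harpin, 3 of 6 tested clones were higher and 1 was lower, where 53.5% of all clones were called. With megaspermin 3 of 5 were higher, where 23.3% of all clones were. These 3 were PR1B clone BQ121947 itself, PPO clone BQ113740 at 0.57 and STWRKY8 clone BQ113469 at 0.96. The other PPO clone, BQ115500, was at 0.25 and did not pass (limma adjusted p = 0.266). STWRKY8 clone BQ121965 had -0.10 on 1 array and was not tested. With harpin in wild-type cells, BQ115500 was the clone called lower (-0.70), while BQ113740 was at 0.09.

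Markers of other tissues were checked, since ratios cannot show whether a cell type is present. Of 12 leaf symbols only PSBR, a photosystem II subunit, was found; with megaspermin at 8 h 1 of its 6 tested clones was higher, and in the biotic control 0 of 4 were called by limma, with 0 below an unadjusted p of 0.05. Of 9 storage organ symbols GBSS (granule-bound starch synthase) and SS16 were found, on 5 clones. With megaspermin at 8 h 2 of 4 tested were higher and 1 lower, with a median of 0.80, and in the biotic control 4 of 5 were higher and 1 was lower, with a median of 1.64. Over all clones, 37.1% were called with megaspermin at 8 h and 29% in the biotic control. The change between them was lower for 2 of 4 tested storage organ clones and higher for 0, where 12.4% of all clones were lower. With harpin at 4 h minus the biotic control it was lower for 3 of 5, where 14.2% of all clones were called in either direction. The part of these clones in the HPL result was not tested.

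By likeness of group means, the named clones most like HPL clone BQ111808 over 7 groups were LOC102594176 (r = 0.92), LOC102577828 (0.90), RSI5 (0.89), FLS (0.89) and CO (0.89), among 649 candidates. The least like were LOC102587738 (-0.97) and LOC102589666 (-0.96). Those most like PR1B clone BQ121947 over 10 groups were CO (0.94), GRX2 (0.93), IAA2 (0.90), LOC102578876 (0.89) and LOC102584168 (0.88), among 551 candidates. The least like were LOC102598087 (-0.93) and DD (-0.93). The other HPL and PR1B clones had means in 6 and 5 groups, below the minimum of 7, and no likeness is given.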

How the data were processed

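A deposited table of 32448 spots by 32 arrays was used. The authors deposited 1 signed value per spot, taken here as the log2 ratio of query (Cy3) to reference (Cy5), channels named per the labels. The base of 2 and a correction within each array are assumptions, as neither is stated in the sources used here. Dye-exchanged arrays correlated positively with standard ones (0.64 to 0.90), so their signs had been turned. Paired spots gave 15360 clones; 1728 unpaired spots were left out. Names were potato symbols of a dated table. A limma 3.58.1 model (R 4.3.3) with 10 group means over 30 standard arrays was fitted, with empirical Bayes moderation (8.02 prior degrees of freedom), and tested on simulated data. Why spots lack values is not given in the sources used here. Replicate numbers did not pair arrays: deviations of same-numbered arrays correlated at a median of -0.04 (-0.54 to 0.46). All PR1B and HPL clones were described; other named clones were the 5 most and 2 least alike and up to 5 best measured per list. Members and lists were chosen with earlier results of these data known. Alternatives changed the filter, scaling, spots, dye term, array weights, block and replicates. Of 496 array pairs, 0 held identical values. The number of arrays limits the precision. Python 3.11.15 with pandas 2.3.3 and matplotlib 3.10.9 read tables and drew figures.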

Additional observations from a re-analysis of the deposited data

Results flagged for a closer look

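The HPL clone BQ119647 differed between conditions by a test of the difference itself: the log2 ratio of SIPK-silenced to wild-type cells with megaspermin at 8 h minus that in the biotic control was -1.20. HPL clone BQ111808 gave -0.50 in the same comparison and did not pass.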

How the results depend on the processing

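Over 55 results for the HPL and PR1B clones, 712 alternative values were computed: 673 kept their side of the threshold, 23 calls were lost, 16 were gained and 0 calls changed sign. The HPL means outside megaspermin were above 0 in all 128 alternatives (0.39 to 1.80). Every spot value in these groups lay above 0, so leaving out arrays or spots could not turn their sign. For both HPL clones and BQ121947 the dye term rests on the abiotic control array with exchanged dyes alone. With a dye term, HPL clone BQ111808 fell below the threshold in the abiotic control (0.57), the biotic control (0.39), with harpin at 4 h (0.86) and 8 h (0.80) and with xanthine oxidase at 4 h (0.68) and 8 h (0.86), as did HPL clone BQ119647 with harpin at 4 h (0.55) and 8 h (0.62) and PR1B clone BQ121947 in wild-type megaspermin (0.27), while BQ121947 with megaspermin at 8 h passed (-0.59). With array weights, whose fit did not reach its convergence tolerance, BQ111808 harpin minus megaspermin at 8 h (1.01), BQ121947 with xanthine oxidase at 8 h (-0.26) and its change from control (-0.46), and BQ514625 with megaspermin at 4 h (-0.34) and its change (-0.43) passed. Over all clones, array weights called 36.3%, 64.7%, 22.5%, 52.9% and 42.1% in these comparisons, in that order. With the replicate block, harpin minus megaspermin at 8 h passed for BQ111808 (1.01) and BQ119647 (1.22), as did BQ121947 with harpin at 4 h (0.59) and in wild-type harpin (0.56); every other call was kept under the block. Spot 2 of BQ111808 alone passed for megaspermin at 8 h minus the biotic control (-1.22) and harpin minus megaspermin at 8 h (1.18). Arrays scaled to a common spread (0.40) or that group alone in the fit (0.51) ended the wild-type megaspermin call of BQ121947, and with the groups alone BQ119647 harpin minus megaspermin at 8 h passed (0.92). Leaving out 1 array, a lone array being assumed to vary like the other groups, gave ranges across the threshold for BQ111808 in the abiotic control (0.74 to 1.07), the biotic control (0.56 to 0.83), harpin at 4 h (0.68 to 1.60) and 8 h (0.63 to 1.52), xanthine oxidase at 8 h (0.83 to 1.45) and harpin minus megaspermin at 8 h (0.46 to 1.35). The same held for BQ119647 with harpin at 4 h (0.43 to 1.25) and 8 h (0.58 to 1.23), megaspermin at 8 h minus the biotic control (-1.43 to -0.92) and harpin minus megaspermin at 8 h (0.60 to 1.25), and for BQ121947 with megaspermin at 8 h (-0.51 to -0.20) and in wild-type megaspermin (0.34 to 0.67). The number of all clones called moved by over 1.5 times in 19 of 21 comparisons with spots as separate rows (biotic control 5321, against 2982), 11 with array weights (5007, against 2982; xanthine oxidase minus control 700, against 5, at 4 h and 1862, against 25, at 8 h), 6 with a dye term (biotic control 1949), 5 with scaled arrays (abiotic control 3879, against 2460), 5 with the groups alone (wild-type harpin minus megaspermin 130, against 836) and 1 with the block (xanthine oxidase at 4 h minus control 0, against 5), and in 20 of 93 fits without 1 array (xanthine oxidase at 8 h minus control 142 without its replicate 2, against 25). Except where the setting itself uses fewer arrays, the cause was not tested.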
